A study of Saccharomyces cerevisiae with 8 samples.

Results

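The RNA of a parental anchor-away strain of the budding yeast Saccharomyces cerevisiae was compared between cultures given rapamycin at 1 µg/mL for 1 h and untreated cultures. The comparison took 4 of the 8 libraries of the series, 2 with rapamycin and 2 untreated, chosen by their labels alone. All cells were W303 of mating type MATalpha. They carried tor1-1, a FPR1 deletion (fpr1::NAT) and the anchor RPL13A-2xFKBP12::TRP1, and further the alleles his3-11,15, leu2-3,112, can1-100, ura3, trp1-1, ade 2-1, GAL and psi+. A second strain, named Dbp2-FRB-GFP here, adds DBP2-FRB-GFP-KanMX6 to that genotype and had the same treatment, with 2 libraries given rapamycin and 2 untreated. Cells grew in the rich medium YPD to mid-log phase, RNA came from a hot phenol extraction, and rRNA-depleted RNA was made into stranded libraries. The labels name no vehicle, and whether the untreated cultures were kept for the same hour is not given, so rapamycin, its solvent and further growth cannot be told apart. The design text calls the replicates biological; with 2 per group an exact permutation test has 6 arrangements and a smallest p of 0.333, so the tests rest on limma, which shares the spread over all features.

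Rapamycin binds the prolyl isomerase FKBP12, which FPR1 encodes in yeast, and the pair then grips the FRB domain of Tor1 or Tor2 and inhibits TORC1, the kinase complex that matches growth to nutrients. In wild-type yeast this releases the GATA factors Gln3 and Gat1 onto nitrogen catabolite genes, Rtg1 and Rtg3 onto genes of the mitochondria-to-nucleus (retrograde) pathway, Gcn4 onto amino acid synthesis genes, and Msn2 and Msn4 onto stress genes, while genes for ribosomal proteins and ribosome assembly are turned down. Anchor-away strains are built to keep growing in the drug. The tor1-1 product no longer binds the drug complex and the main FKBP12 is deleted, so that rapamycin can be used to bridge an FRB-tagged nuclear protein to the FKBP12-fused ribosomal protein Rpl13A. The parental strain has no FRB-tagged protein, and its treatment asks what the drug does by itself in this background. In the Dbp2-FRB-GFP strain Dbp2 carries the FRB tag. Its values therefore join the drug with any tethering of Dbp2, and these cannot be told apart.

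The promoters shown are those of the protein-coding gene that passed the test (PIR3, a cell wall protein) and of a leading member of each of the nitrogen, retrograde and Gcn4 groups described further on: DAL5, a permease for allantoate, CIT2, the peroxisomal citrate synthase, and SNZ1, a subunit of the vitamin B6 synthase. Each is the coding strand of the R64 genome from base −400 to base −101 before the start codon. Capitals mark matches, on either strand, to GATAAG (the string bound by Gln3 and Gat1), GTCAC (the R box of Rtg1 and Rtg3), TGACTC (Gcn4) or AGGGG (the stress element of Msn2 and Msn4). No match overlaps another in these windows.
PIR3 (chrXI:144001-144300, plus strand): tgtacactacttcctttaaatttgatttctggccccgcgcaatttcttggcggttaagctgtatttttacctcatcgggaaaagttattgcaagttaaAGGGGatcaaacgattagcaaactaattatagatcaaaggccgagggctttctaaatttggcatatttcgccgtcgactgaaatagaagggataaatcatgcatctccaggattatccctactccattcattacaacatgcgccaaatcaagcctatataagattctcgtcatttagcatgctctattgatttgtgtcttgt
DAL5 (chrX:719266-719565, plus strand): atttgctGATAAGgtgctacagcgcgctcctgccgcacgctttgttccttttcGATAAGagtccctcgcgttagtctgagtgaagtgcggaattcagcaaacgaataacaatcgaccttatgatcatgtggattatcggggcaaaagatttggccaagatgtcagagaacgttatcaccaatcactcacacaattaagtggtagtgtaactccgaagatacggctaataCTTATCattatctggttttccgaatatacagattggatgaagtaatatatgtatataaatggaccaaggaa
CIT2 (chrIII:122429-122728, minus strand): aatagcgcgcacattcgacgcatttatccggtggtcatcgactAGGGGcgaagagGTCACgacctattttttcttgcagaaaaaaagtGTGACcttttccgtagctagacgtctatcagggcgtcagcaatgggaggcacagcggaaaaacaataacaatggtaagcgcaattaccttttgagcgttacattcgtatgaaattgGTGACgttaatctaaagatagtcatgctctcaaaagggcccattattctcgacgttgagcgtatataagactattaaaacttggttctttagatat
SNZ1 (chrXIII:458008-458307, plus strand): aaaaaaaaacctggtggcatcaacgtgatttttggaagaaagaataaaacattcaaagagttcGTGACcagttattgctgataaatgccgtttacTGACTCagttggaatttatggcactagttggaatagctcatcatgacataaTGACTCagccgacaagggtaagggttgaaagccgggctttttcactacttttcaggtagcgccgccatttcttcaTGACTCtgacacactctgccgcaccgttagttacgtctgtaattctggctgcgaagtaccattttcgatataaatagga
Over 6007 such windows of protein-coding genes, GATAAG was in 14.0%, GTCAC in 29.4%, TGACTC in 8.47% and AGGGG in 23.6%. The DAL5 window holds 3 GATAAG matches, 393, 347 and 171 bases before the start codon, and 1.46% of windows hold 2 or more. The CIT2 window holds 3 GTCAC matches, 345, 312 and 196 bases before the start codon, against 5.18% of windows with 2 or more. The SNZ1 window holds 3 TGACTC matches, 305, 254 and 179 bases before the start codon, against 0.799% of windows with 2 or more. The PIR3 window holds 1 AGGGG match, 302 bases before the start codon. A match is a string of letters and not a measured binding site. Shares of these strings in the gene lists further on come from the genome alone, so they describe the lists and not the response to rapamycin.

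The deposited values are read densities, reads per nucleotide scaled by the authors to ERCC spike-in RNAs, so a library-wide difference in RNA per spike-in stays visible. The table holds 10799 yeast features, of which 9656 had enough signal to be tested. The parental libraries held 22521835 and 24769742 yeast reads with rapamycin, and 27266383 and 24255490 reads without it. Spike-ins made up 4.05 and 3.86% of the reads with rapamycin, and 4.44 and 3.90% without it. Untreated replicate 1 stood apart. Its median log2 density over all features lay 0.17 below the mean of the 4 parental libraries, against 0.03 and 0.09 above it in the rapamycin libraries and 0.05 above it in untreated replicate 2. The median log2 fold change of all features was 0.10, and without that library it was 0.002. Changes of gene groups are therefore given relative to the median of all features.

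**Figure D1:**
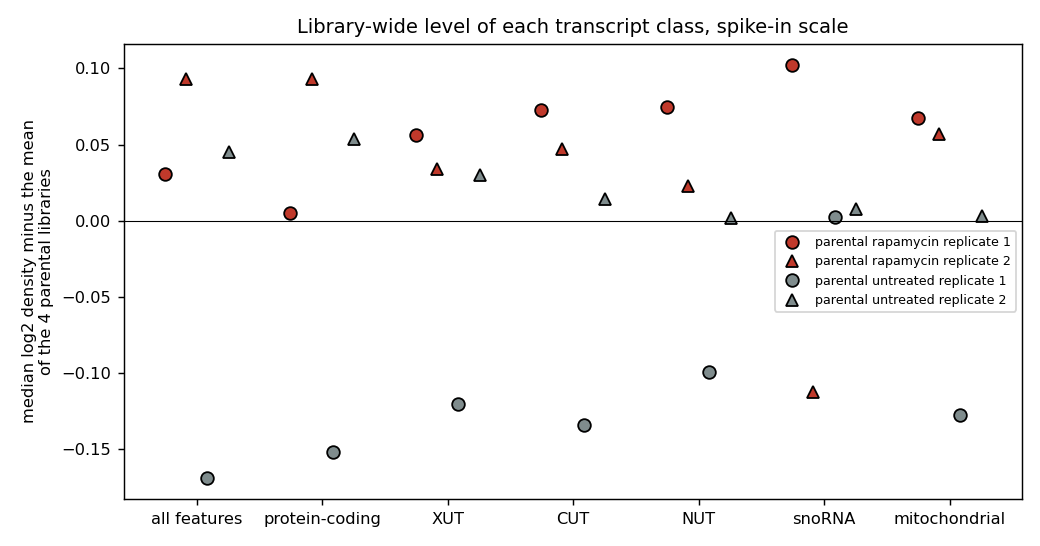
Median log2 density of each transcript class in the 4 parental libraries, as the difference from the mean of those libraries (vertical axis, log2), with rapamycin libraries in red, untreated ones in grey, circles for replicate 1 and triangles for replicate 2. Untreated replicate 1 is lowest for all features (−0.17) and for every class but snoRNAs, where rapamycin replicate 2 is lowest (−0.11).

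The mating type markers followed the label. The 4 α-specific genes summed to densities of 57.5 and 55.4 with rapamycin and 52.8 and 57.6 without it. A list of 8 genes drawn up as a-specific summed to 4.41 and 4.25 with rapamycin and 3.997 and 4.35 without it. Most of that sum came from AFB1, at a mean of 4.10 with rapamycin and 3.93 without it. AFB1 encodes the a-factor barrier of α cells, so it does not belong in that list and its level is no sign of a cells. MFA1, an a-factor gene, had 6 and 0 reads with rapamycin and 9 and 10 reads without it (limma adjusted p = 0.278). FPR1, deleted per the labels, still had 100 and 112 reads with rapamycin and 108 and 109 reads without it, and the table does not show where in the gene they lie. Its log2 fold change was 0.17 ± 0.16 (standard error; limma adjusted p = 0.919).

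Neither the kinase genes nor the anchor gene passed the test described further on. TOR1 had densities of 0.349 and 0.371 with rapamycin and 0.282 and 0.351 without it, and the groups overlapped. TOR2, the other Tor kinase, had 0.282 and 0.295 with rapamycin and 0.230 and 0.276 without it. Their log2 fold changes were 0.19 ± 0.15 for each gene (limma adjusted p = 0.919 for both). RPL13A, which carries the FKBP12 fusion, had 2.37 and 2.62 with rapamycin and 2.06 and 2.47 without it. Its paralog RPL13B, which encodes the same ribosomal protein without the fusion, had 14.7 and 16.6 with rapamycin and 13.7 and 17.1 without it. The 95% interval of the log2 fold change ran between −0.15 and 0.43 for RPL13A and between −0.26 and 0.31 for RPL13B. DBP2, untagged in this strain, had 2.29 and 2.59 with rapamycin and 2.42 and 2.61 without it. TRP1, the marker of the anchor construct, had 1.77 and 1.92 with rapamycin and 1.51 and 1.71 without it.

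Across the transcriptome 3 of 9656 features (0.0311%) passed limma's test at an adjusted p under 0.05, 2 higher with rapamycin (0.0207%) and 1 lower (0.0104%). At an unadjusted p under 0.05 there were 528 features (5.47%). Fold changes were small: among the 6512 features with at least 50 mean reads in the parental libraries, 20 were at least 1.5-fold higher with rapamycin, 1 was at least 1.5-fold lower, and 1 was at least 2-fold higher. For 9370 of the 9656 features the 95% interval of the fold change lay within 2-fold in either direction, and the interval reached a median of 0.34 to either side on the log2 scale. The precision therefore sets a bound on most features but leaves changes of about 1.25-fold unresolved for a single gene. The number called ranged from 0 to 77 over the alternative fits. It was 24 (23 higher, 1 lower) among 6774 features with at least 50 mean reads over all libraries, a minimum chosen after the data were seen, and 0 when those features were also scaled to the protein-coding median. In bulk RNA a large change in few cells and a small change in all cells cannot be told apart.

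**Figure D2:**
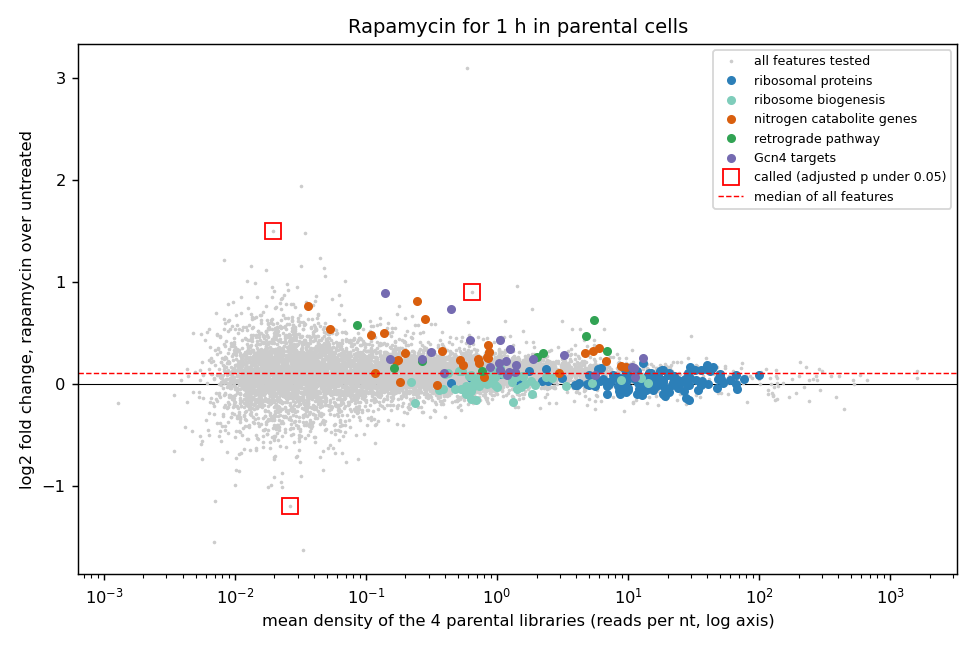
Log2 fold change of rapamycin over untreated parental cells (vertical axis) against the mean density of the 4 parental libraries (horizontal log axis, reads per nucleotide), 1 point per feature tested, with 5 gene lists in colour, called features boxed in red and the all-feature median dashed. The 3 boxed features are XUT0992 (1.50), PIR3 (0.90) and XUT0807 (−1.20), and the scatter widens below a density of about 0.1.

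PIR3 (YKL163W, chromosome XI 144401–145378, plus strand, 1 coding exon) rose with rapamycin. It encodes a protein of the yeast cell wall that is linked to glucan. Its density was 0.932 and 0.758 with rapamycin (1380 and 1198 reads), against 0.466 and 0.430 without it (937 and 672 reads). Both treated cultures lay above both untreated ones. The log2 fold change was 0.90 ± 0.15 (limma adjusted p = 0.0151), a 1.86-fold difference. The call was lost without rapamycin replicate 1 (0.75, adjusted p = 0.0717), untreated replicate 1 (0.96, 0.0786) or untreated replicate 2 (0.84, 0.0806), and over all alternatives the adjusted p ran between 7.08e-06 and 0.353. PIR3 also rose in the Dbp2-FRB-GFP strain, to 1.96 and 1.87 with rapamycin, against 1.34 and 1.11 without it (0.65 ± 0.15, limma adjusted p = 0.0174).

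The other called features were XUTs, antisense and intergenic RNAs degraded by the cytoplasmic exonuclease Xrn1, and both rest on few reads. The sources used here do not give the strand setting of the counting, so reads of an XUT and of a gene it overlaps may not be told apart. XUT0992 rose to 10 and 7 reads with rapamycin, against 2 and 2 reads without it (log2 fold change 1.50 ± 0.23, limma adjusted p = 0.0136). XUT0807 fell to 3 and 3 reads with rapamycin, against 11 and 10 reads without it (−1.20 ± 0.19, limma adjusted p = 0.0151). Leaving out untreated replicate 1 ended both calls with differences of similar size (1.41, adjusted p = 0.117 for XUT0992; −1.30, 0.0786 for XUT0807), and leaving out untreated replicate 2 also ended that of XUT0807 (−1.11, 0.105). In the tagged strain XUT0992 also rose (0.83 ± 0.23, limma adjusted p = 0.0323), while XUT0807 stood at 0.08 ± 0.19 (0.723). The single call left without untreated replicate 1 was CUT625, named after its values were seen, at 1.85 in that fit (limma adjusted p = 0.00641), with 9 and 11 reads with rapamycin and 8 and 2 reads without it.

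Genes of the retrograde pathway, which feeds citrate cycle intermediates into glutamate synthesis, lay highest of the gene lists. None of the 9 members passed the test. All 9 were above the median of all features, and for 6 of them both treated cultures lay above both untreated ones, where 28.7% of all features did. Their median log2 fold change was 0.30, which is 0.20 above that of all features, and the excess ran from 0.17 to 0.24 over the alternatives. The excess in the tagged strain was 0.21. Without untreated replicate 1, 7 of the 9 lay above the all-feature median. CIT2, the standard reporter of the pathway (YCR005C, chromosome III 120946–122328, minus strand), had densities of 6.91 and 6.32 with rapamycin, against 4.20 and 4.37 without it. The groups were clearly apart, 1.54-fold, at 0.63 ± 0.14 (limma adjusted p = 0.0913). The same gene reached 0.89 ± 0.14 in the tagged strain (limma adjusted p = 0.00117). DLD3, a cytosolic D-lactate dehydrogenase, had 5.68 and 5.42 with rapamycin, against 3.82 and 4.20 without it (0.47 ± 0.13). ACO1, mitochondrial aconitase, had 7.63 and 7.57 with rapamycin, against 5.59 and 6.58 without it (0.32 ± 0.13). PDH1, an enzyme of propionate breakdown, stood at 0.58 ± 0.16. The isocitrate dehydrogenase subunits stood at 0.30 ± 0.14 (IDH2) and 0.27 ± 0.14 (IDH1), and the regulators RTG1, RTG2 and RTG3 between 0.13 and 0.22 with overlapping groups. The GTCAC string was in 6 of the 9 promoter windows (66.7%), against 29.4% of all windows.

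**Figure D3:**
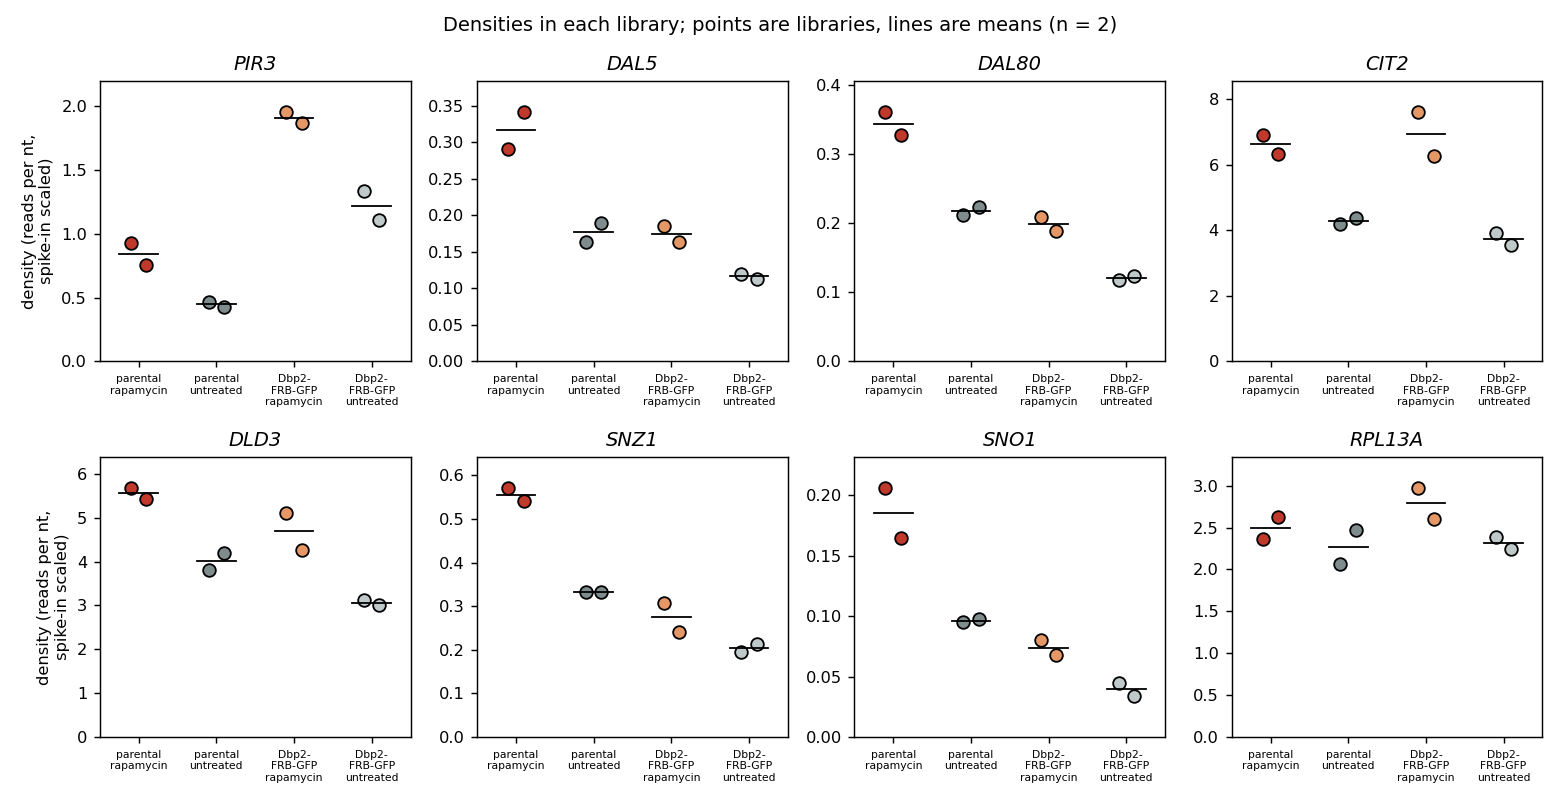
Density (reads per nucleotide, spike-in scaled, vertical axes from 0) of 8 genes in each library, with parental rapamycin and untreated libraries in red and dark grey and those of the Dbp2-FRB-GFP strain in orange and light grey; lines are means (n = 2). In the 7 genes from PIR3 to SNO1 both rapamycin points lie above both untreated points in the parental strain, whereas those of RPL13A overlap.

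Genes under nitrogen catabolite control, which take up and break down poor nitrogen sources, were also above the rest. None of 29 passed the test, 26 lay above the all-feature median, and in 25 (86.2%, against 28.7% of all features) both treated cultures lay above both untreated ones. Their median was 0.26, which is 0.15 above all features (0.11 to 0.21 over the alternatives), and 12 (41.4%, against 5.47% of all features) had an unadjusted p under 0.05. Leaving out untreated replicate 1 also gave 26 of 29 above the median. The highest values belonged to DAL5, ASP3-1 and DAL80, and the general amino acid permease GAP1, glutamine synthetase and GZF3, another GATA factor gene, lay lower.

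DAL5 (YJR152W, chromosome X 719666–721297, plus strand) had densities of 0.291 and 0.341 with rapamycin, against 0.163 and 0.190 without it. The groups did not overlap, and the log2 fold change was 0.81 ± 0.16 (limma adjusted p = 0.0808; 0.682 to 0.926 over the alternatives, of which 12 of 22 called it). DAL80, the GATA repressor that is itself a target of the pathway, had 0.360 and 0.327 with rapamycin, against 0.212 and 0.224 without it (0.64 ± 0.15, limma adjusted p = 0.129). UGA4, the permease for γ-aminobutyrate, had 0.160 and 0.164 with rapamycin, against 0.110 and 0.115 without it (0.50 ± 0.16). MEP2, a high-affinity ammonium permease and sensor, had 6.81 and 6.69 with rapamycin, against 5.16 and 5.44 without it (0.35 ± 0.13). At the other end GAP1, the general amino acid permease, had 10.2 and 10.3 with rapamycin, against 8.63 and 9.63 without it, 1.12-fold apart. GLN1, glutamine synthetase, stood at 0.22 ± 0.16, GDH2, a catabolic glutamate dehydrogenase, at 0.19 ± 0.14, and GZF3 at −0.01 ± 0.15. The DAL80 window holds 3 GATAAG matches, 290, 283 and 227 bases before the start codon. GATAAG was in 23 of 29 windows of these genes (79.3%), against 14.0% of all. In the tagged strain, where 13.7% of all features rose and 0.145% fell, the median excess was 0.05. Of the 29 members 6 rose there, DAL5 (0.55 ± 0.16, limma adjusted p = 0.0356) and DAL80 (0.69 ± 0.15, 0.0127) among them, and 1 fell, the asparaginase gene ASP3-1 (−1.15 ± 0.24, 0.0101).

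Targets of Gcn4, the activator of amino acid synthesis, had a median of 0.22, which is 0.11 above all features (0.09 to 0.12 over the alternatives). None of 24 passed the test, 21 lay above the all-feature median, and in 17 (70.8%, against 28.7% of all features) the groups did not overlap, with rapamycin higher. The leading pair was SNZ1 and SNO1, subunits of the vitamin B6 synthase whose genes lie head to head, 449 bases apart, with the window printed for SNZ1 between them. SNZ1 (YMR096W, chromosome XIII 458408–459301, plus strand) had densities of 0.571 and 0.541 with rapamycin, against 0.332 and 0.332 without it (0.73 ± 0.15, limma adjusted p = 0.0808). SNO1 (YMR095C, 457285–457959, minus strand) had 0.206 and 0.164 with rapamycin, against 0.0949 and 0.0975 without it (0.89 ± 0.18, limma adjusted p = 0.0808). Both genes are also known for rising in stationary phase. The 7 stationary phase markers, both of them included, summed to 1.35 and 1.09 with rapamycin, against 0.962 and 0.805 without it. SNZ1 and SNO1 are part of that sum, so it does not stand apart from their own rise. Over the 7 genes the log2 fold changes ran from −0.14 to 0.89. In 3 of them (42.9%, against 28.7% of all features), SNZ1 and SNO1 included, the groups did not overlap, with rapamycin higher. The part of culture age in these values was not tested. ARG1 and ARG4, the last steps of arginine synthesis, stood at 0.43 ± 0.15 and 0.34 ± 0.14, and GCN4 itself at 0.25 ± 0.13. TGACTC was in 20 of the 24 windows (83.3%). In the tagged strain 12 of the 24 rose, against 13.7% of all features there.

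The list of cell wall and calcineurin genes held PIR3 and had a median of 0.23, 0.13 above all features (0.10 to 0.15 over the alternatives). Of 22 members 1 rose, where 0.0207% of all features did, and 19 lay above the all-feature median. In 19 (86.4%, against 28.7% of all features) the groups did not overlap, with rapamycin higher. PST1, a wall protein induced by wall damage, had densities of 8.17 and 7.45 with rapamycin, against 5.07 and 5.68 without it (0.54 ± 0.13, limma adjusted p = 0.159). SED1, an abundant wall glycoprotein, had 37.5 and 33.1 with rapamycin, against 25.7 and 25.1 without it (0.47 ± 0.12, limma adjusted p = 0.193). SLT2, the kinase of the wall integrity pathway, stood at 0.27 ± 0.14. The calcineurin targets RCN2 and CMK2 stood at 0.06 ± 0.14 and 0.05 ± 0.14, and ENA1, a sodium pump, at −0.08 ± 0.16, all with overlapping groups.

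Ribosome genes lay on the other side of the median. None of the 138 ribosomal protein genes passed the test. None had both treated cultures above both untreated ones, where 28.7% of all features did. That count moved with single libraries. Without untreated replicate 2 it was 112, and 7179 of all 9656 features did so. Without rapamycin replicate 1 it was 52 (5357 of all features), and it stayed at 0 without either of the other parental libraries. Of the 138 genes 26 lay above the all-feature median, and their own median was 0.03, which is 0.07 below it. The single gene whose treated cultures both lay below the untreated ones, where 4.32% of all features did, was RPL41B, with 26.7 and 28.6 with rapamycin, against 30.0 and 31.7 without it (−0.16 ± 0.12, limma adjusted p = 0.919). Every 95% interval of these genes lay within 2-fold, the lowest bound being −0.41 and the highest 0.50. Ribosome biogenesis genes had 5 of 59 above the all-feature median, none called, and a median 0.08 below it. Subunits and factors of RNA polymerases I and III had 2 of 24 above it, none called, and a median likewise 0.08 below. The depth of these shortfalls moved with single libraries: for ribosomal proteins it was −0.13 without rapamycin replicate 2 and −0.02 without rapamycin replicate 1, and for ribosome biogenesis −0.12 and −0.03. So did the counts above the all-feature median: for ribosomal proteins 12 and 53 in those fits, 4 without untreated replicate 1 and 48 without untreated replicate 2, for ribosome biogenesis 1, 21, 7 and 7, and for the polymerases 1, 7, 2 and 5 in the same order. On the spike-in scale as deposited, all 3 medians were slightly above 0. NOP15, a ribosome assembly factor, had 1.15 and 1.34 with rapamycin, against 1.32 and 1.49 without it, and the groups overlapped. The highest member of each list was RPS11B at 0.20 ± 0.15, UTP22 at 0.15 ± 0.16 and RRN7 at 0.20 ± 0.18. Many ribosomal protein genes have a near-identical paralog, so the split of reads within such pairs is uncertain.

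**Figure D4:**
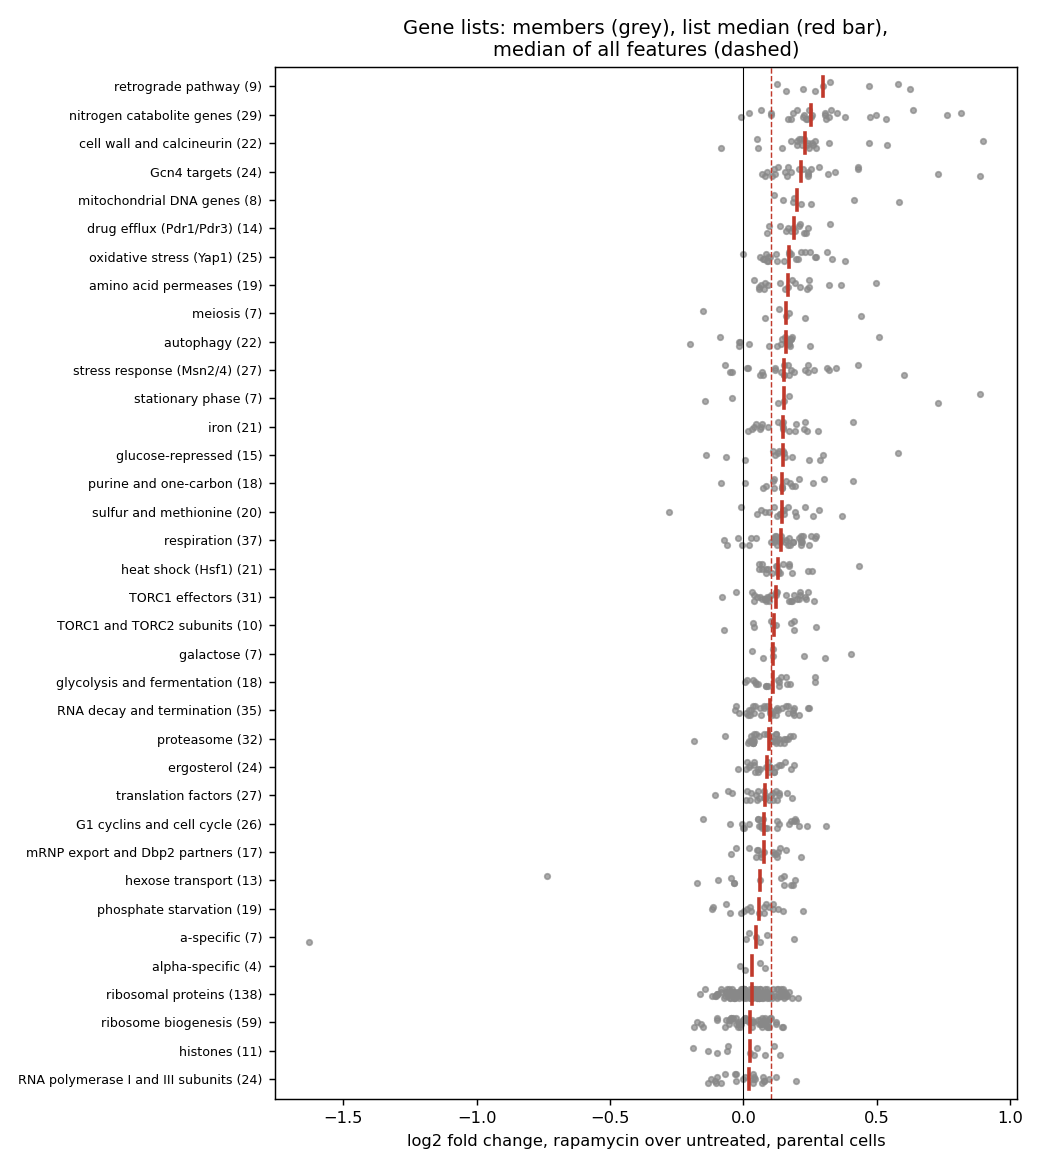
Log2 fold change of rapamycin over untreated parental cells (horizontal axis) for each member (grey points) of the gene lists, ordered by list median (red bars), with the number of members tested in brackets and the all-feature median of 0.10 as a dashed line. The retrograde, nitrogen, cell wall and Gcn4 lists are at the top (medians 0.22 to 0.30) and the ribosome biogenesis, histone and RNA polymerase I and III lists at the bottom (0.02).

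The level of the stress list moved with single libraries. Of 27 Msn2 and Msn4 targets none passed the test, 19 lay above the all-feature median and the list median was 0.05 above it. That excess was 0.23 without rapamycin replicate 2, with all 27 genes above the median, and 0.13 without untreated replicate 1 (22 genes above it). It turned to −0.10 without rapamycin replicate 1 (11 genes) and −0.05 without untreated replicate 2 (12 genes). CTT1, cytosolic catalase, stood at −0.04, and HSP12, a small membrane-protecting protein, at 0.02. YGP1, a secreted glycoprotein made when nutrients run low, had densities of 7.25 and 5.47 with rapamycin, against 4.83 and 4.52 without it (0.43 ± 0.15, limma adjusted p = 0.563). The heat shock list of 21 chaperone genes had a median 0.03 above all features (0.007 to 0.061 over the alternatives), with the Hsp110 gene SSE2 highest at 0.43 ± 0.17. AGGGG was in 25 of the 27 windows of the stress list (92.6%), against 23.6% of all windows. In the tagged strain the median excess was 0.19 for each of the stress and heat shock lists, and 16 of 27 and 14 of 21 genes rose, against 13.7% of all features. Scaled to protein-coding features, the calls of that strain numbered 25 in all, against 1336 on the spike-in scale, and the difference between strains was not tested for these lists. The proteasome list had a median 0.01 below all features in the parental strain. Of 22 autophagy genes none passed the test, and the highest was ATG41, with 0.357 and 0.288 with rapamycin, against 0.204 and 0.245 without it (0.51 ± 0.15).

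Other lists held no called member. The 8 genes of mitochondrial DNA all had both treated cultures above both untreated ones, where 28.7% of all features did, with a median 0.10 above all features. That excess was 0.04 without untreated replicate 2. ATP8, a subunit of ATP synthase, led them at 0.58 ± 0.18 (limma adjusted p = 0.391), and OLI1, another subunit, was lowest at 0.12 ± 0.11. The 37 nuclear genes of respiration had a median 0.04 above all features, and in 25 (67.6%, against 28.7% of all features) the groups did not overlap, with rapamycin higher. Leaving out 1 parental library gave an excess of 0.01 without rapamycin replicate 1, 0.02 without untreated replicate 2, 0.06 without rapamycin replicate 2 and 0.07 without untreated replicate 1. Targets of the drug resistance regulators Pdr1 and Pdr3, which make efflux pumps, had a median 0.09 above all features, with 12 of 14 above it and RTA1 highest at 0.33 ± 0.16. Histone genes had a median 0.08 below all features, with 2 of 11 above it. The 31 effectors and regulators of TORC1 had a median 0.02 above all features, and GLN3, the GATA factor of the nitrogen genes, stood at 0.26 ± 0.16. Glycolysis genes lay 0.01 above all features and ergosterol genes 0.01 below. Meiotic genes summed to 0.292 and 0.290 with rapamycin, against 0.259 and 0.277 without it, near the floor of the table.

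The noncoding classes lay close to the median of all features. Medians of XUTs, CUTs (cryptic unstable transcripts, degraded by the nuclear exosome) and NUTs (transcripts extended when the termination factor Nrd1 is missing) were each 0.01 below that of all features. These offsets changed sign with the library left out, from −0.045 without rapamycin replicate 1 to 0.026 without rapamycin replicate 2 for XUTs, and likewise from −0.073 to 0.036 for CUTs and from −0.067 to 0.040 for NUTs. Of 1461 XUTs 1 rose and 1 fell, and none of 828 CUTs and none of 1189 NUTs passed the test. At an unadjusted p under 0.05 there were 144 XUTs (9.86%), 92 CUTs (11.1%) and 42 NUTs (3.53%), against 5.47% of all features. Densities are low in these classes. In rapamycin replicate 1 the median log2 density was −4.57, −4.74 and −4.83 in that order, against −1.42 for protein-coding features. The part of low density in these shares was not tested. The 76 snoRNAs, stable guides of rRNA modification, had a median of −0.0002, which is 0.10 below all features, with 10 above it and none called. They were the class in which untreated replicate 1 was not low: its snoRNA median lay 0.0024 above the parental mean, whereas that of rapamycin replicate 2 lay 0.11 below it. The snoRNA shortfall was −0.02 without untreated replicate 1 and also −0.02 without rapamycin replicate 2, and −0.20 without rapamycin replicate 1 or untreated replicate 2; the count above the all-feature median was 33, 31, 6 and 11 in these fits, in that order.

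Several further genes were chosen after their values were seen, because they were among the lowest p with at least 50 reads. SER3, which catalyses the first step of serine synthesis, had densities of 1.40 and 1.36 with rapamycin, against 0.860 and 0.934 without it (0.62 ± 0.15, limma adjusted p = 0.142). OPI3, a methyltransferase of phosphatidylcholine synthesis, had 5.16 and 5.04 with rapamycin, against 3.31 and 3.72 without it (0.54 ± 0.14). PYC1, a pyruvate carboxylase that refills the citrate cycle, had 1.89 and 1.82 with rapamycin, against 1.22 and 1.37 without it (0.52 ± 0.15). Replicates of these genes lay close together and the groups did not overlap, which their choice by low p favours. DPI8 stood at 0.73 ± 0.15 (limma adjusted p = 0.0808), MOH1 at 0.65 ± 0.17 and SPO24 at 0.54 ± 0.13. The metallothionein gene CUP1-1 spread widely within both groups, and its copy CUP1-2 within the rapamycin group only. CUP1-1 stood at 3.10 ± 0.63 (limma adjusted p = 0.0808) and is the feature counted above as at least 2-fold higher. CUP1-2 stood at 0.96 ± 0.21 (limma adjusted p = 0.0913). CUP1-1 had 274 and 96 reads with rapamycin, against 5 and 71 reads without it, and CUP1-2 had 462 and 260 reads, against 234 and 182. These copies are near identical, so how reads were split between them is uncertain. For CUP1-1 the rapamycin libraries themselves were 1.49 and 0.489 in density, and the untreated ones 0.0200 and 0.365. For CUP1-2 the densities were 2.511 and 1.325 with rapamycin, and 0.9371 and 0.9365 without it.

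The Dbp2-FRB-GFP strain gave a second pair of groups that shares no library with the parental comparison. It is no repeat of the drug alone, since rapamycin can also bridge the tagged Dbp2 to the anchor there. With the same test 1336 features (13.8%) passed there, 1322 higher (13.7%) and 14 lower (0.145%), on an all-feature median of 0.32. The difference between the strains was tested as an interaction, parental minus tagged, and 4 of 9656 features (0.0414%) passed, 1 higher in parental cells (0.0104%) and 3 lower (0.0311%). Of the 3 features called in the parental strain none passed it, and the interaction of PIR3 was 0.25 ± 0.21 (limma adjusted p = 0.630). Across all 9656 features the fold changes of both strains correlated at Pearson r = 0.10 and Spearman rho = 0.11. Over 6774 features with at least 50 mean reads the values were 0.22 and 0.15; these points share their libraries and are given as a description. Of 206 such features that were higher in parental cells at an unadjusted p under 0.05, 151 (73.3%) also lay above the tagged strain's all-feature median, against 52.1% of all features with that many reads.

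Side by side, the lists differed in how far they followed each other. The excess over all features was 0.20 in parental and 0.21 in tagged cells for the retrograde list, and 0.11 and 0.13 for the Gcn4 list. It was 0.15 and 0.05 for the nitrogen list, and 0.13 and 0.00 for the cell wall list. Ribosomal proteins lay below in both strains, at −0.07 and −0.13. Histones lay at −0.08 in parental and 0.11 in tagged cells. The α-specific genes lay at −0.07 in parental and −0.46 in tagged cells. These differences between list medians were not tested.

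**Figure D5:**
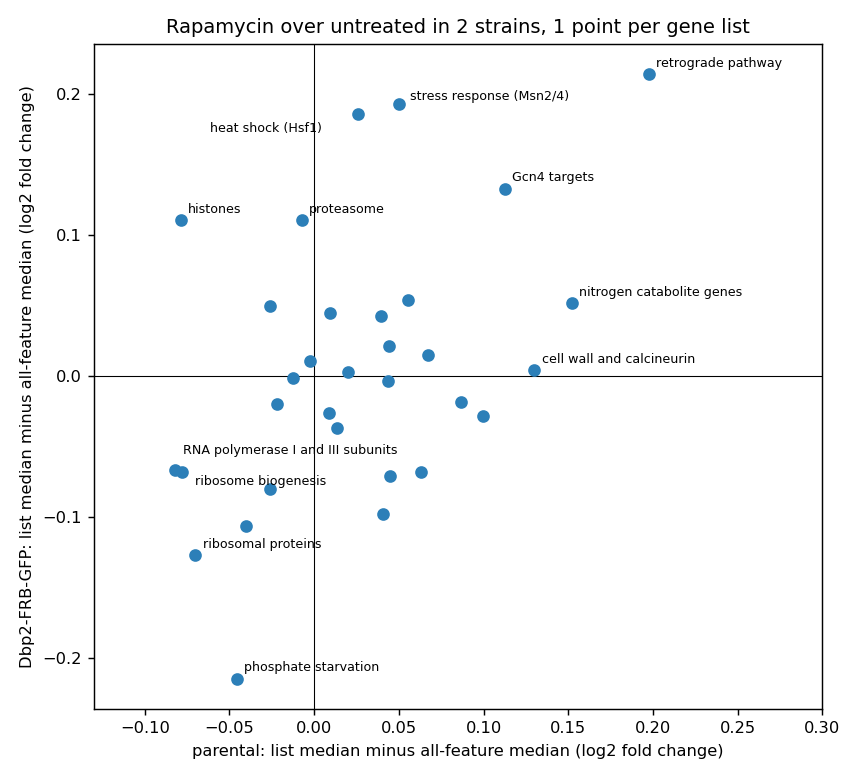
Median log2 fold change of gene lists minus that of all features, in parental cells (horizontal axis) and Dbp2-FRB-GFP cells (vertical axis), 1 point per list, with some of the lists named. The genotype, mating type, meiosis and stationary phase lists are not drawn. Retrograde and Gcn4 genes lie to the upper right, nitrogen and cell wall genes to the right near the horizontal axis, stress and heat shock genes near the top, and ribosomal proteins to the lower left.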

How the data were processed

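Stranded libraries of rRNA-depleted total RNA from 8 cultures were used. Per the submitters' processing notes, reads were handled with Trim Galore, HISAT2 2.2.0, featureCounts 2.0.0 and DESeq2 on the R64 build. None of the sources used here states the strand setting. The values that the authors deposited are a signal, read densities per nucleotide scaled to ERCC spike-ins. Every positive value (100%) was a whole read number within 0.01 reads once multiplied by a length of up to 40000 nt and a library factor. Of 5871 protein-coding features with a known coding length, 743 were whole at that length. Lengths were partly chosen for this. Recovered reads therefore describe depth, set the minimum of 50 mean reads and feed an alternative fit (voom), but do not enter the main test. A total of 10891 features includes 92 spike-ins.

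Limma 3.58.1 (R 4.3.3) was fitted to log2(density + 0.00721), the 5th percentile of positive values, over all 8 libraries with a trended prior (18 prior and 4 residual degrees of freedom). A mean density of at least 0.0133 (10th percentile) was required, which 9656 features met. Contrasts were rapamycin in parental cells, rapamycin in Dbp2-FRB-GFP cells and the interaction of strain and drug, each two-sided, with p-values of the 9656 features adjusted by Benjamini and Hochberg and called under 0.05. Because of the pseudocount, printed fold changes are smaller than the true ratio in low features. The test was also run on data simulated with known changes, with an outcome that is not given here.

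The members and gene lists were chosen with earlier results of these data known. By rule the text names genotype genes, called features, the members of each list with the lowest p (up to 4 called or 2 uncalled), the 5 lowest p where fewer than 5 features were called, and features called in the interaction; other members show a list's range. SER3, PYC1, OPI3, DPI8, CUP1-1, CUP1-2, MOH1, SPO24, DLD3, GAP1, MEP2, PST1, SED1, ACO1 and CUT625 were named after their values were seen, as were further list members given only by fold change. Promoters and gene positions come from RefSeq R64. Alternatives were other scalings (protein-coding, snoRNA, quantile), pseudocounts, filters, priors, a replicate block, voom on recovered reads, 1 strain alone and leaving out each library, where a group with 1 library left is assumed to vary as the others do. Python 3.11.15 with pandas 2.3.3, numpy 2.4.6, scipy 1.17.1 and matplotlib 3.10.9 was used. The main test was not a count model, since densities are no counts, and voom on recovered reads served only as an alternative.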

Additional observations from a re-analysis of the deposited data

Results flagged for a closer look

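In 4 features the response to rapamycin differed between the strains by the interaction test, parental minus Dbp2-FRB-GFP. The snoRNA gene snR56 (chromosome II 88190–88277, plus strand) differed by −1.23 ± 0.18 (log2, limma adjusted p = 0.00849; −1.33 to −0.98 over the alternatives, 18 of 21 of which called it). It had 220 and 217 reads with rapamycin and 252 and 221 without it in parental cells, where the fold change was 0.10 ± 0.13. In Dbp2-FRB-GFP cells it had 1566 and 1380 reads with rapamycin and 722 and 720 without it. NUT0013 differed by −1.18 ± 0.20 (limma adjusted p = 0.0211), with 294 and 289 reads with rapamycin and 335 and 283 without it in parental cells, and 2147 and 1926 with rapamycin and 991 and 1024 without it in Dbp2-FRB-GFP cells. The table gives no positions, so whether NUT0013 covers snR56 was not tested.

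RRT5 (chromosome VI 222090–222959, minus strand) differed by −2.01 ± 0.35 (limma adjusted p = 0.0211). It had 2 and 7 reads with rapamycin and 5 and 10 without it in parental cells, and 197 and 137 with rapamycin and 62 and 52 without it in Dbp2-FRB-GFP cells. ASP3-1 (chromosome XII 469317–470405, minus strand), an asparaginase gene under nitrogen control, differed by 1.91 ± 0.33 (limma adjusted p = 0.0211). It had 57 and 47 reads with rapamycin and 31 and 32 without it in parental cells, and 5 and 5 with rapamycin and 30 and 18 without it in Dbp2-FRB-GFP cells. It belongs to a set of near-identical copies, so its reads are uncertain. After scaling to protein-coding features none of the 4 passed the interaction test over all 9656 features, with differences of −0.98 for snR56 (limma adjusted p = 0.124), −0.93 for NUT0013 (0.276), −1.76 for RRT5 (0.309) and 2.17 for ASP3-1 (0.276). Quantile normalization gave −1.11 (0.0606), −0.97 (0.256), −1.74 (0.372) and 2.14 (0.291) in the same order. With that protein-coding scaling and at least 50 mean reads, snR56 passed (−0.998, limma adjusted p = 0.0466).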

How the results depend on the processing

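The count of features called for rapamycin in parental cells (3) was 0 after scaling to protein-coding features, after quantile normalization, without a filter, or scaled to protein-coding features with at least 50 mean reads. It was 8 with the pseudocount at the 25th percentile, 21 scaled to snoRNAs, 23 by voom, 24 with at least 50 mean reads, 37 with a robust prior, 61 with the filter at the 25th percentile, 64 from the parental libraries alone, and 1 to 77 leaving out 1 library. The count in Dbp2-FRB-GFP cells (1336) was 25 scaled to protein-coding features (36 with at least 50 mean reads), 5 by quantiles, 2154 with the higher pseudocount, 279 without a filter, 2538 with the stricter one, 209 without a trend, 2487 with a robust prior, 3009 by voom, 2756 with at least 50 mean reads, and 117 to 4712 leaving out 1 library. The interaction count (4) was 0 scaled to protein-coding features (2 with at least 50 mean reads) or by quantiles, 68 scaled to snoRNAs, 9 with the higher pseudocount, 1 without a filter, 73 with the stricter one, 52 with a robust prior, 16 by voom, 22 with at least 50 mean reads, and 8 to 126 leaving out 1 library. Several fits with many calls had an infinite prior, which gives each feature the trend's spread whatever its own replicates do. The all-feature median in parental cells ran from 0.002 to 0.201 leaving out 1 library. The cause of these shifts was not tested.

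With a replicate block the counts were 57 for parental cells, 904 for Dbp2-FRB-GFP cells and 101 for the interaction. Same-numbered libraries shared a deviation of r = 0.151 in the parental groups and −0.0664 in the tagged ones, so the numbers are not taken as a pairing, and with 2 numbers no more can be said.

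Direction turned in the 9 genes given here, none of them called in the parental comparison. The fold change of HXT6 (−0.74) was not near 0: 7 of 22 alternatives called it lower, and it was 0.059 without parental untreated replicate 1. Scaled to protein-coding features, SAG1 was −0.019, MF(ALPHA)1 −0.036 and RPL13B −0.074 (with at least 50 mean reads −0.032, −0.049 and −0.087), and by quantiles SAG1 was −0.031 and RPL13B −0.021. Leaving out 1 library gave ranges of −1.532 to 0.059 for HXT6, −0.002 to 0.408 for RPS11B, −0.051 to 0.585 for TDH1, −0.015 to 0.382 for TIF2, −0.01 to 0.343 for FPR1, −0.038 to 0.197 for SAG1, −0.033 to 0.157 for MF(ALPHA)1, −0.134 to 0.045 for DBP2 and −0.136 to 0.184 for RPL13B.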
